A study of Mus musculus with 84 samples.

Results

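The translocases of the outer and inner mitochondrial membrane (Tomm and Timm genes) were described in liver and inguinal adipose tissue (IAT) of diabetic mice treated with rosiglitazone or with a compound named only S. Members were all genes whose name on the array starts with Timm or Tomm followed by a digit, kept in a tissue if 50% or more of the arrays of a treated group, or of the pool, had a probe of the gene well above background. Of 27845 gene names on the array, 19 matched, with 34 probes. All 19 were kept in IAT and 18 in liver. Timm8a2 was not kept in liver, where its probe was well above background on 0 of 72 arrays in the treated channel and on 1 of 72 in the pool channel. Where a gene had several probes, the brightest one in the tissue stood for it.

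All mice were male BKS Cg-m+/+ Leprdb/J (db/db), which lack a working leptin receptor and become obese and diabetic. They received rosiglitazone (RSG), a thiazolidinedione that activates PPARγ, or S by mouth for 18 days at 28, 84 or 280 µmol/kg. There were 6 samples, each from 1 mouse, in each of 12 groups (2 compounds, 3 doses, 2 tissues). By the methods of the study both tissues were taken from the mice, so liver and IAT groups are not separate sets of animals, but the labels do not say which samples share a mouse. Each mouse RNA was hybridised on 2 arrays with exchanged dyes against 1 pool per tissue, made by joining the RNA of 6 db/db mice that got no compound. The pool is therefore 1 control sample that every group of a tissue shares, and the spread between untreated mice is in no test. IAT was taken as a whole depot that holds both white and brown adipose tissue, so fewer cells of a type and less RNA per cell cannot be told apart. Mice of db/+ background and soleus muscle were not analysed here.

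Most mitochondrial proteins are encoded in the nucleus, made in the cytosol and imported. The TOM complex of the outer membrane takes them in through receptors and a channel, small TIM chaperones carry hydrophobic precursors across the space between the membranes, and 2 TIM complexes of the inner membrane either insert carrier proteins or pass proteins with a presequence to the matrix. Brown adipocytes are rich in mitochondria and burn fuel for heat through Ucp1, and thiazolidinediones are known to induce brown adipocyte genes in fat.

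The array signals in IAT stood further above background than those in liver, with a median signal over background of 2.56 to 4.26 per array in IAT and 1.62 to 2.12 in liver. The probes standing for the members were well above background on 72 of 72 arrays in both channels and both tissues, and none was saturated, with the exception of Timm8a2 in IAT (62 of 72 treated, 68 of 72 pool). All 9 adipocyte and 9 brown adipocyte markers were measured in IAT and all 7 hepatocyte markers in liver. Values below are log2 ratios of treated mouse over pool, given as mean ± SD of 6 mice, and "higher" or "lower" means an adjusted p under 0.05 in limma, adjusted over all probes tested in the tissue. RefSeq lists Timm9, Timm10 and Timm13 as older names of one another in part, and the chromosomes of the probes in mm8, the genome build of the files (12 for Timm9, 10 for Timm13, 2 for Timm10), are those of the current genes.

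Sequence upstream of the members was read from RefSeq (GRCm38.p6), as windows of equal length that run from upstream of the gene start to just past it. There were 19 windows for 17 of the 19 member genes. Motifs of factors of mitochondrial biogenesis or of PPAR were searched on both strands. They were the ERR element TCAAGGTCA, the NRF1 core CGCATGCG, which reads the same on both strands, the ETS core CCGGAAG bound by GABPA, the YY1 core AAGATGGCG and the DR1 element of PPAR and RXR, by its consensus of direct repeats with 1 free base between them. None of these letter strings contains another. The ETS core was found in 7 of the 17 genes (Timm10, Timm23, Timm8a2, Timm8b, Tomm22, Tomm34 and Tomm70a), and in 8.86% of all 32851 windows. The ERR element was found in Timm8b alone of the 17 (0.423% of all windows), the NRF1 core in Timm13 alone (1.87%), the YY1 core in Timm50 alone (1.4%), and DR1 in none of them (0.0396%). These are matches of letters and not binding sites. The windows of 4 members are shown with matches in capitals: Timm8b, which holds the ERR element and an ETS core, Timm13, which holds the NRF1 core, Timm9, the member with the highest ratio in IAT, which holds no match, and Tomm34, whose brightest probe was lower in both tissues, which holds ETS cores. They lie at chr9:50603651-50603950 on the plus strand, chr10:80900920-80901219, chr12:71136626-71136925 and chr2:164071053-164071352, the last 3 on the minus strand.
Timm8b: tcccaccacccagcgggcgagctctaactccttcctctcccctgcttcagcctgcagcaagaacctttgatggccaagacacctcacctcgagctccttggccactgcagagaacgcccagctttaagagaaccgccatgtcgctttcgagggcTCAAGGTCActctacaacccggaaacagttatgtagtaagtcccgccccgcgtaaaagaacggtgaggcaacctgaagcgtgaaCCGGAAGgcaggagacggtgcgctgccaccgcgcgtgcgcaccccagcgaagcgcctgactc
Timm13: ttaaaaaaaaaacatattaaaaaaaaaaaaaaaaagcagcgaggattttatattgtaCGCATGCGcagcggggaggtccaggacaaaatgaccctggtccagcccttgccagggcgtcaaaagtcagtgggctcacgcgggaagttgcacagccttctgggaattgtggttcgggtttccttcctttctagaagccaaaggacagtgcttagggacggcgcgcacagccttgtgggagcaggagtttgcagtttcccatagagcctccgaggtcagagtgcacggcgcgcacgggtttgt
Timm9: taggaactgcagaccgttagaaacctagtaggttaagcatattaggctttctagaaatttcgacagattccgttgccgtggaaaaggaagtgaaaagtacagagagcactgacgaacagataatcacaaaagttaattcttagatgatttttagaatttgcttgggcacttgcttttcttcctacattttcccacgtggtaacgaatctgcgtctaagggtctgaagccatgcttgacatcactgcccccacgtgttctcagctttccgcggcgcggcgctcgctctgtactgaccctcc
Tomm34: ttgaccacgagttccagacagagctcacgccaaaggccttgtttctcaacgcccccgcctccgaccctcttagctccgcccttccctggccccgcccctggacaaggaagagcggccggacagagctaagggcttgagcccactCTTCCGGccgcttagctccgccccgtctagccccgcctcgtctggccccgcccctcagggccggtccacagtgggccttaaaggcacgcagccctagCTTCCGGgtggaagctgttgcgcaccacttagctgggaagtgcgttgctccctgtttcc

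In IAT at 280 µmol/kg RSG, the RNA of nearly all members was more abundant than in the pool of untreated mice. Of the 19 members, 17 were higher and 1, Tomm34, was lower, with a median of 0.71, against 33.5% higher and 32.7% lower among all genes tested there, whose median was 0.01. Members were higher in the receptors and channel of the outer membrane, the small chaperones and both translocases of the inner membrane. Timm8a2, the only other member, had a ratio of 0.03 ± 0.24 and did not pass the test (adjusted p = 0.75 in limma). Of the 34 probes of the 19 genes, 31 were higher and 1 was lower.

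**Figure D1:**
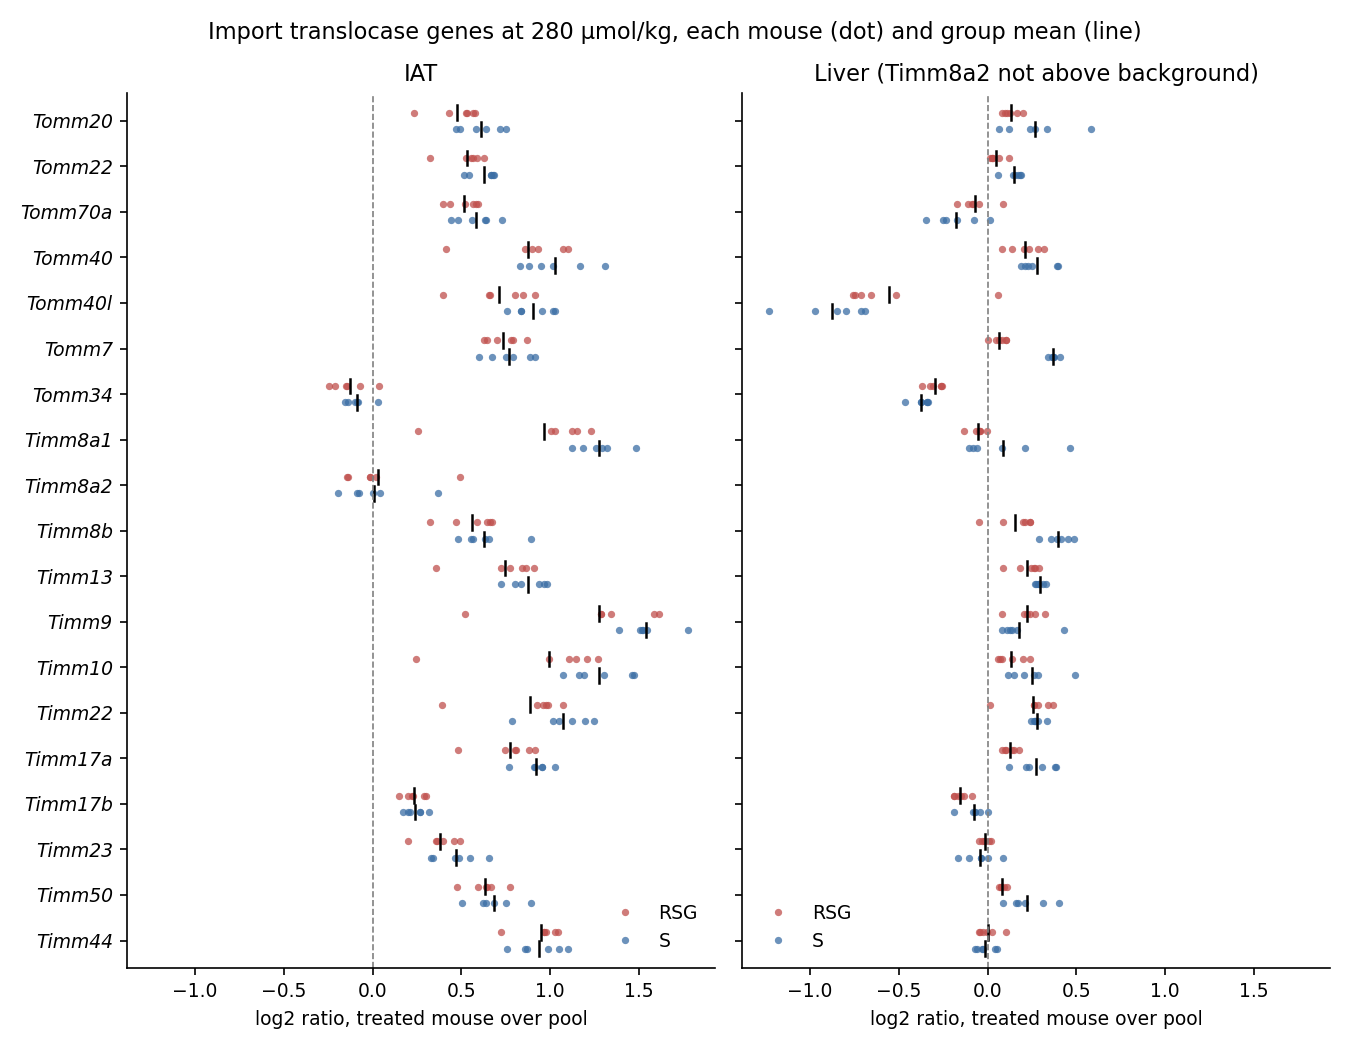
Log2 ratio of each mouse over the pool (x axis) for each member gene (y axis) at 280 µmol/kg RSG or S, in IAT and in liver; each point is 1 mouse, 6 per group, and the black mark is their mean. In IAT all genes but Timm8a2 and Tomm34 lie to the right of 0 in every mouse, while in liver most points lie close to 0, Tomm34 lies to its left in every mouse, and so does Tomm40l except in RSG replicate 2 (0.06).

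The small chaperones held the highest ratio. Timm9, which forms a hexamer with Timm10 that carries hydrophobic precursors to the inner membrane, had ratios in IAT of 0.52 (lowest), 1.32 (median) and 1.61 (highest) among the 6 mice at 280 µmol/kg RSG. Its mean of 1.27 ± 0.40 is a 2.42-fold increase (adjusted p = 2.50e-14). All 6 mice lay above the pool, and replicate 2 lay well below the other mice. The 3 probes of Timm9 ran from 0.50 to 1.27, all called higher, and the brightest one gave the highest value. Of the 3, 1 was dim in IAT, well above background on 20 of 72 arrays in the treated channel and 9 of 72 in the pool channel. Timm13, partner of the Timm8 proteins in the second such complex, had ratios of 0.36, 0.81 and 0.91 (lowest, median and highest), with a mean of 0.75 ± 0.20 (adjusted p = 4.15e-14). Its lowest mouse was again replicate 2. Of the other small chaperones, Timm10, Timm8a1 and Timm8b had means of 0.99, 0.97 and 0.56, and Timm8a2 had the 0.03 given above.

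Timm22, the core of the translocase that inserts carrier proteins into the inner membrane, had IAT ratios of 0.39, 0.97 and 1.08 at this dose (lowest, median and highest mouse), a 1.85-fold mean increase (0.89 ± 0.25; adjusted p = 1.21e-13). All mice were above the pool, with replicate 2 lowest.

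In the presequence translocase, Timm44, which tethers the import motor to the channel on the matrix side, had ratios of 0.72, 0.97 and 1.04 in IAT. The mean of 0.95 ± 0.12 (1.93-fold) had the smallest p of all members (adjusted p = 1.56e-17). The 5 mice other than replicate 2 lay within 0.97 and 1.04. Timm17a, a subunit of the channel, had ratios of 0.48, 0.80 and 0.91 and a mean of 0.77 ± 0.15 (adjusted p = 3.74e-16). Its paralog Timm17b moved less, at 0.23 ± 0.06 (adjusted p = 1.42e-09), with all 6 mice between 0.15 and 0.30. The brightest of the 4 Timm17b probes gave the lowest value. The 4 ran from 0.23 to 0.54, all called higher, and the 2 Timm17a probes from 0.77 to 0.87. The 2 paralogs are read by different probes, and levels of different probes were not compared. Timm23, the channel itself, and Timm50, the receptor that passes presequences to it, had means of 0.38 and 0.63.

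In the outer membrane, Tomm7, a small subunit of the TOM complex, had IAT ratios of 0.63, 0.74 and 0.87 and a mean of 0.74 ± 0.09 (1.67-fold; adjusted p = 6.80e-15). The 6 mice lay close together, replicate 2 included. Tomm40, the channel of the complex, and its paralog Tomm40l had means of 0.88 and 0.71. By their brightest probes, the receptors Tomm20, Tomm22 and Tomm70a had smaller means, of 0.48, 0.53 and 0.51, each with all 6 mice above the pool. The 2 probes of Tomm20 ran from 0.48 to 0.73 and the 4 of Tomm70a from 0.51 to 0.78. Those of Tomm40 ran from 0.68 to 0.88, so the order of Tomm40 and these 2 receptors depends on the probe. Tomm34, a cytosolic co-chaperone of precursors and not a membrane translocase, had ratios of -0.24, -0.14 and 0.04 (lowest, median and highest), with a mean of -0.13 ± 0.10 (adjusted p = 0.00432). Of the 6 mice 5 lay below the pool and 1 above it, and a second Tomm34 probe had a mean of -0.02 (adjusted p = 0.72).

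S at 280 µmol/kg gave the same counts in IAT, set against the same pool. Of the 19 members 17 were higher and Tomm34 was lower (-0.09 ± 0.07; adjusted p = 0.0401; 0.01 and not called by its second probe), with a median of 0.77, against 38.7% of all genes higher and 35.6% lower. Timm9 had ratios of 1.39, 1.52 and 1.78 (lowest, median and highest) and a mean 2.92-fold above the pool (adjusted p = 1.52e-16). No S-treated mouse stood apart for Timm9. The 3 Timm9 probes ran from 0.56 to 1.54 with S, all called higher. Timm10 and Timm8a1 followed, with means of 1.28 ± 0.17 and 1.28 ± 0.12, and Timm44 had a mean of 0.94 ± 0.13.

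The rise in IAT was already there at the lowest dose and grew with dose. At 28 µmol/kg RSG, 16 members were higher and 0 lower (median 0.26, against 23.7% of all genes higher and 21.5% lower), and at 84 µmol/kg 17 were higher and 1, Tomm34, lower (median 0.56, against 33.8% and 30.7%). With S, 14 were higher and 0 lower at 28 µmol/kg (median 0.17, against 24.5% and 21.4%), and 17 higher and 0 lower at 84 µmol/kg (median 0.33, against 28.9% and 25.2%). The members not called at 28 µmol/kg RSG were Timm23, Timm8a2 and Tomm34, and with S also Tomm7 and Tomm70a. The 4 probes of Tomm70a ran from 0.05 to 0.40 with S, and 3 of them were higher, so this depends on the probe. Tomm7 is an example of a low ratio at this dose, with 0.21 ± 0.08 for RSG and 0.10 ± 0.06 for S. The 3 probes of Timm9 ran from -0.17 to 0.46 with S at 28 µmol/kg, with 1 higher and 1 lower. Its direction there depends on the probe, and the 3 include the dim one named above.

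**Figure D2:**
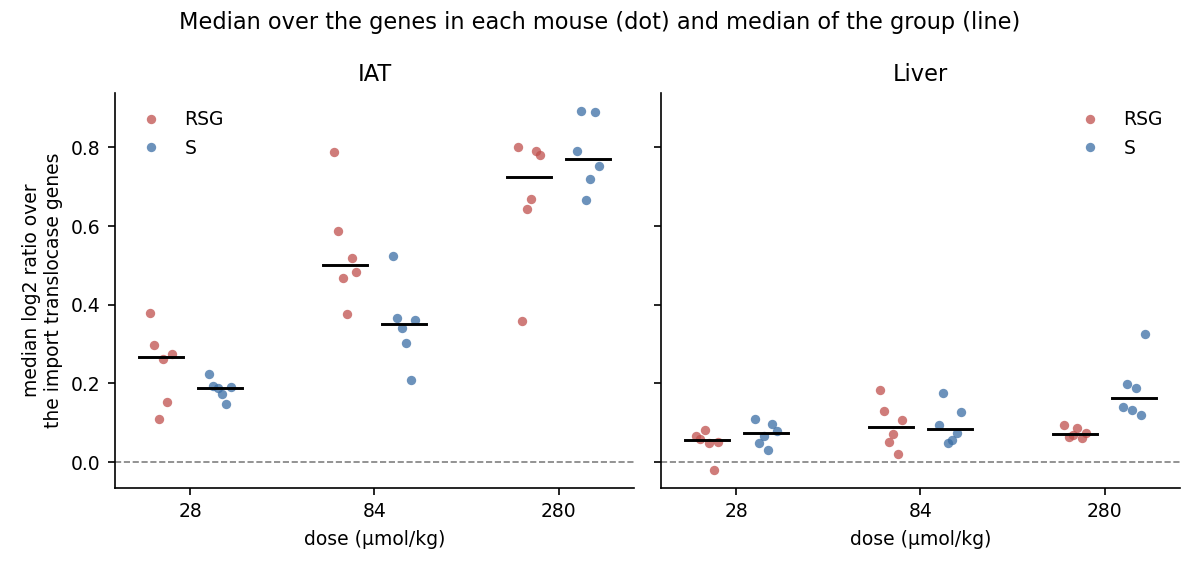
Median log2 ratio over the member genes in each mouse (y axis) by dose in µmol/kg (x axis) for RSG and S in IAT and liver; each point is 1 mouse and the line marks the median of the group. In IAT the medians run from 0.111 to 0.378 at 28 µmol/kg RSG and from 0.359 to 0.802 at 280 µmol/kg, and with S from 0.148 to 0.224 and from 0.667 to 0.891; in liver no mouse passes 0.325.

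Between 280 and 28 µmol/kg, in which the pool cancels, 17 of the 19 members in IAT were higher at the high dose of RSG and 0 lower, the median difference being 0.44, against 13.5% of all genes higher. For S the count was 17 higher and 0 lower, with a median difference of 0.60, against 25.1% of all genes higher. The 2 members not called were Timm8a2 and Tomm34 for both compounds. With the scan day as a term in the fit, 11 members were called for RSG, with a median of 0.49, and for S this term could not be estimated, because the mice at 280 µmol/kg were scanned on days of their own. The group means rose in the order 28, 84 and 280 µmol/kg in 17 of 19 members for each compound. All 6 mice at 280 µmol/kg lay above all 6 at 28 µmol/kg in 7 members for RSG and in 17 for S. The order of the means and the overlap of the mice were not counted over all genes.

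Timm44 had the smallest p of the dose difference for both compounds. With RSG its mouse ratios were 0.20, 0.30 and 0.51 (lowest, median and highest) at 28 µmol/kg, 0.60, 0.69 and 0.87 at 84 µmol/kg, and the 0.72 to 1.04 given above at 280 µmol/kg. The lowest and the highest dose did not overlap, and their difference was 0.63 (95% confidence interval 0.50 to 0.76; adjusted p = 3.13e-08). With S its ratios were 0.07, 0.18 and 0.21 at 28 µmol/kg, 0.19, 0.37 and 0.59 at 84 µmol/kg and 0.76, 0.93 and 1.10 at 280 µmol/kg. Here too the ends of the dose range did not overlap, with a difference of 0.78 (0.65 to 0.91; adjusted p = 9.75e-11). The largest dose difference among the members was that of Timm9, at 0.71 for RSG (adjusted p = 3.52e-05) and 1.08 for S (adjusted p = 1.39e-08). Its 3 probes ran from 0.20 to 0.71 for RSG, with 2 called higher, and from 0.73 to 1.08 for S, all called higher.

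**Figure D3:**
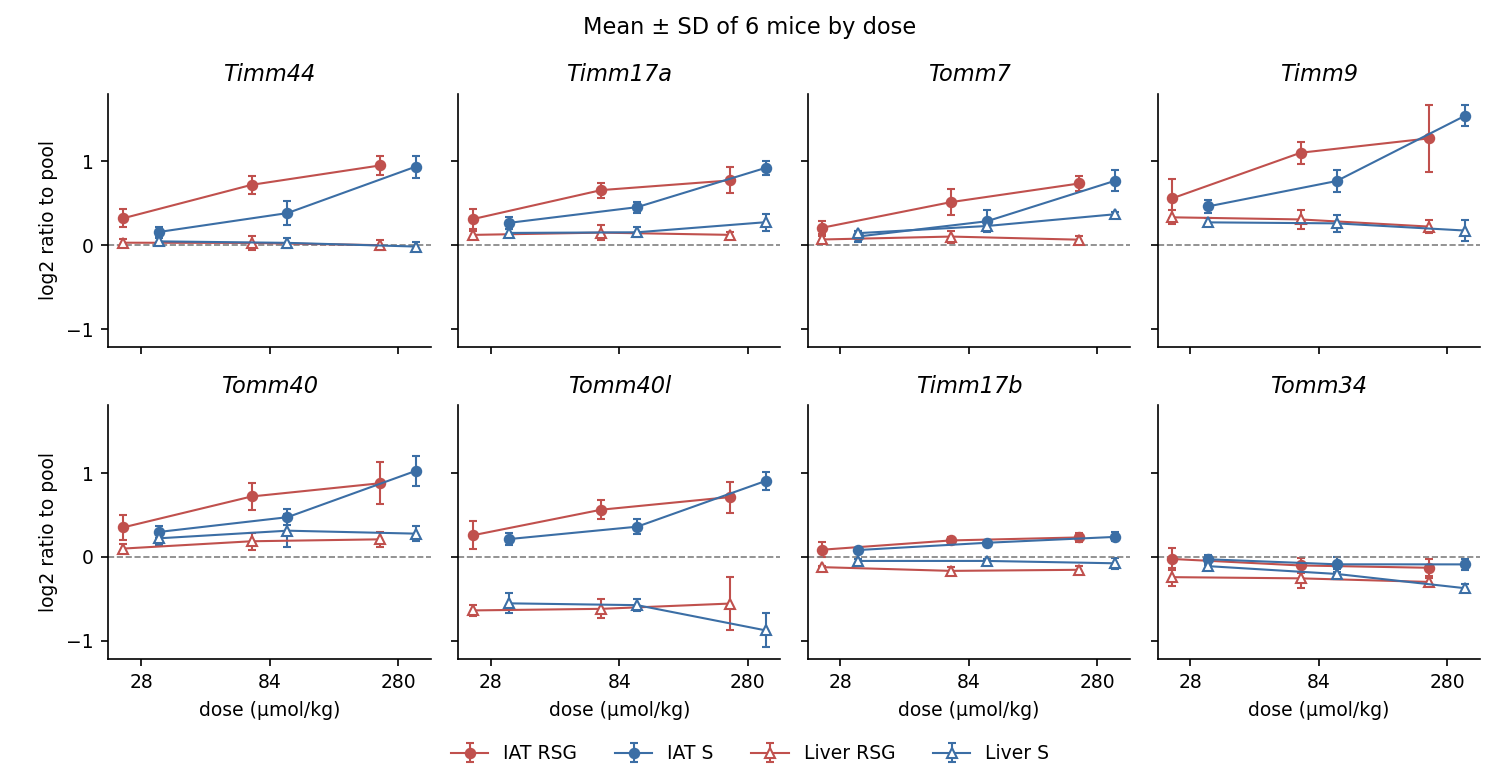
Log2 ratio over the pool (y axis, mean ± SD of 6 mice) by dose in µmol/kg (x axis) for Timm44, Timm17a, Tomm7, Timm9, Tomm40, Tomm40l, Timm17b and Tomm34, for RSG and S in IAT and liver. In IAT Timm9 runs from 0.56 to 1.27 with RSG and from 0.46 to 1.54 with S, while Tomm34 stays within -0.13 and -0.02.

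One mouse of IAT RSG 280, replicate 2, stood apart. It was the lowest of its group in 8 members by a wide gap, and its median over the 19 members was 0.359 against 0.643 to 0.802 in the other mice. In this mouse the brown adipocyte markers had a mean ratio of 1.19 against 2.00 to 2.29 in the others, the skeletal muscle markers 0.553 against -3.77 to -0.576, and the epithelial markers 0.0924 against -3.49 to -0.897. Without it, 17 members were higher and 1 lower against the pool with a median of 0.76, and the dose difference of RSG had 17 higher with a median of 0.52.

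Markers of cell types moved in the same IAT samples. Of 9 brown adipocyte markers, 8 were higher and 0 lower at 280 µmol/kg of RSG and of S (medians 1.93 and 2.57), and 5 were higher and 2 lower at 28 µmol/kg of each (medians 1.38 and 0.55). Ucp1, the uncoupling protein of brown fat, had a ratio of 3.27 for RSG and 3.36 for S at 280 µmol/kg. The mean over the brown adipocyte markers lay between 0.353 and 1.19 in the mice at 28 µmol/kg RSG and between 1.19 and 2.29 at 280 µmol/kg, and with S between 0.332 and 0.917 and between 1.81 and 2.41. Of 8 skeletal muscle markers, 6 were lower with RSG and 8 with S at 280 µmol/kg (medians -1.59 and -3.23), and of 7 epithelial markers 4 and 5 were lower (medians -2.44 and -3.78). Of 7 macrophage markers 5 were lower for each compound, and of 9 adipocyte markers 3 were higher and 3 lower for RSG, and 5 higher and 3 lower for S. Between 280 and 28 µmol/kg, 7 brown adipocyte markers were higher for each compound, and of the muscle markers 0 were called for RSG and 1 was lower for S, with 0 epithelial markers called for either. Macrophage markers were lower in 3 of 7 for RSG and 4 of 7 for S, and adipocyte markers were higher in 4 and lower in 2 of 9 for RSG and higher in 5 and lower in 2 for S. Of 7 lymphocyte markers, 0 were called between doses of RSG and 3 were lower for S, and against the pool 2 were higher with RSG and 2 higher and 4 lower with S at 280 µmol/kg. The part of the cell types in the members' ratios was not tested.

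In liver the same genes moved little and in both directions. At 280 µmol/kg RSG, 10 of the 18 members were higher and 3 lower, with a median of 0.07, against 22.4% of all genes higher and 29.7% lower and a median over all genes of -0.03. With S at this dose, 11 were higher and 4 lower, with a median of 0.20, against 28.4% and 38.6%. By the brightest probes, no member rose by more than 0.40 at 280 µmol/kg in liver. The largest ratio in either direction belonged to Tomm40l, which was lower. A second probe of Tomm20 had 0.45 with S.

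Among the higher members, Timm22 had liver ratios of 0.02, 0.27 and 0.37 (lowest, median and highest mouse) at 280 µmol/kg RSG, with a mean of 0.26 ± 0.13 (adjusted p = 6.11e-08). Its lowest mouse was replicate 2, with the others between 0.26 and 0.37. Timm13 had ratios of 0.09, 0.25 and 0.29 and a mean of 0.22 ± 0.08 (adjusted p = 8.75e-08). Timm9 had ratios of 0.08, 0.23 and 0.32 and a mean of 0.22 ± 0.08 (adjusted p = 2.63e-05). Both lay above the pool in 6 of 6 mice. Tomm40 had ratios of 0.08, 0.22 and 0.32 and a mean of 0.21 ± 0.09 (adjusted p = 2.90e-04). With S at 280 µmol/kg these 4 genes had means of 0.28, 0.29, 0.18 and 0.28, all called higher. The second probes of Timm22, Timm9 and Tomm40 had 0.04, 0.08 and 0.14 with RSG and were not called. With S those of Timm22 and Timm9 had 0.07 and 0.01 and were not called.

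Among the lower members, Tomm34 had liver ratios of -0.37, -0.29 and -0.26 (lowest, median and highest) at 280 µmol/kg RSG and a mean of -0.30 ± 0.04 (adjusted p = 4.70e-09). With S the ratios were -0.47, -0.36 and -0.34, and it was lower at all 3 doses of both compounds. Its fall with S grew with dose, by -0.26 from 28 to 280 µmol/kg (adjusted p = 4.71e-05). In technical repeats of liver RNA at 28 µmol/kg S, described below, its mean was -0.35, against -0.11 in the mice. The dose difference therefore depends on which of these arrays stand for the low dose. Timm17b had ratios of -0.19, -0.16 and -0.09 at 280 µmol/kg RSG and a mean of -0.15 ± 0.04 (adjusted p = 2.87e-07), below the pool in 6 of 6 mice. Tomm70a, the receptor for carrier precursors, had ratios of -0.17, -0.09 and 0.09 and a mean of -0.07 ± 0.09, which did not pass the test (adjusted p = 0.102). At 280 µmol/kg S it was -0.18 ± 0.13 (adjusted p = 4.56e-05), but of its 4 probes 2 were higher there, at 0.25 and 0.26, and 1 was not called, so that its direction in liver depends on the probe.

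Tomm40l had liver ratios of -0.76, -0.69 and 0.06 at 280 µmol/kg RSG, with a mean of -0.56 ± 0.31 (adjusted p = 5.15e-08). The highest was replicate 2, while the other mice lay between -0.76 and -0.52. Without this mouse the mean was -0.68 (adjusted p = 7.13e-12), and the liver count was 10 higher and 4 lower. At 28 and 84 µmol/kg RSG the means were -0.64 ± 0.07 and -0.62 ± 0.11, and with S at 28, 84 and 280 µmol/kg they were -0.55 ± 0.12, -0.57 ± 0.07 and -0.88 ± 0.20, with every mouse below the pool in these 5 groups. In the technical repeats of liver RNA at 28 µmol/kg, which the labels do not tie to single mice, Tomm40l had a mean of only -0.11 with each compound. In RefSeq (GRCm38.p6) the gene overlaps with Nr1i3, a nuclear receptor of liver that senses xenobiotics, by 1044 bases and with Apoa2, an apolipoprotein, by 951 bases. Nr1i3 had liver ratios of -0.56 (adjusted p = 4.37e-04) and -0.43 (adjusted p = 0.00355) at 280 µmol/kg of RSG and of S, and Apoa2 0.28 and 0.17. Both genes were looked up after the values of Tomm40l were seen, and what part their RNA has in the signal of the Tomm40l probe (mm8, chr1:173055816-173055875) was not tested.

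At the lower doses the counts in liver were 8 higher and 5 lower for 28 µmol/kg RSG (median 0.06, against 25.1% of all genes higher and 34.7% lower), 10 and 5 for 84 µmol/kg RSG (median 0.10, against 24.6% and 32.9%), 9 and 2 for 28 µmol/kg S (median 0.07, against 23.5% and 28.9%), and 9 and 3 for 84 µmol/kg S (median 0.10, against 24.4% and 31%). By their brightest probes, Timm9, Timm13, Timm17a, Timm22, Timm50, Timm8b and Tomm7 were higher in all 6 liver groups, and Tomm34 and Tomm40l were lower in all 6. Of the 2 tested probes of Timm9 and of Timm22, only 1 was called higher in each of the 6 groups. The same held for Timm8b at 280 µmol/kg RSG. Genes called in all 6 groups were not counted over all genes. Timm23 and Timm44 were called in none of them. Timm44, which had the smallest p of the members in IAT with RSG at 280 µmol/kg, had liver means of 0.00 with RSG and -0.02 with S at that dose.

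Between 280 and 28 µmol/kg in liver, limma called 0 members for RSG (1 at an unadjusted p under 0.05), where 0.0167% of all genes were called in either direction. The 18 differences ran from -0.11 to 0.11, and their 95% confidence intervals stayed within -0.23 and 0.28. For S, 6 members were higher at the high dose (Tomm7, Tomm20, Timm8b, Timm10, Timm17a and Tomm22) and 2 lower (Tomm34 and Tomm40l), against 13.5% of all genes higher and 16.9% lower. The 2 probes of Timm17a had 0.04 and 0.13, and only 1 was higher. Among members not called by their brightest probe, 1 of 2 Tomm40 and 2 of 4 Tomm70a probes were higher, and 1 of 4 Timm17b probes was lower. With the scan day as a term in the fit, 3 members were called, 2 higher and 1 lower. The smallest p was that of Tomm7, with a difference of 0.23 (0.16 to 0.29; adjusted p = 1.95e-06). The means of Tomm7 at 28, 84 and 280 µmol/kg S were 0.14, 0.23 and 0.37.

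Markers of other cell types were also read in liver. At 280 µmol/kg RSG, 6 of 8 adipocyte markers and 4 of 7 brown adipocyte markers were higher, 2 of the latter were lower, and 6 of 6 skeletal muscle markers were lower. Of 7 hepatocyte markers 2 were higher and 3 lower with RSG, and 1 was higher and 5 lower with S. Ucp1 and Zic1 of the brown adipocyte list and Lep of the adipocyte list were not well above background in liver. The part of these in the ratios of the members was not tested.

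The responses of the 2 tissues were set against each other at 280 µmol/kg, as the IAT ratio minus the liver ratio of 18 members, each tissue against its own pool. All 18 ratios were higher in IAT than in liver for RSG, with a median difference of 0.61, against 36.3% of all genes. The same held for S, with a median of 0.61, against 44.2% of all genes. The largest difference was that of Tomm40l, at 1.27 (1.09 to 1.44; adjusted p = 1.43e-19) for RSG and 1.78 (1.61 to 1.96; adjusted p = 9.43e-27) for S. Timm44 differed by 0.95 for each compound (adjusted p = 1.01e-23 for RSG and 2.62e-24 for S). Tomm34 had the smallest difference for RSG, at 0.17 (adjusted p = 0.00283), and Timm8b for S, at 0.23. Timm17b and Tomm40l were higher than the pool in IAT and lower in liver with both compounds. The fit took the tissues as independent although they share animals. With the replicate number as a block, 18 members were again called for each compound. Liver and IAT arrays were scanned on different days, so tissue and scan day cannot be told apart.

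**Figure D4:**
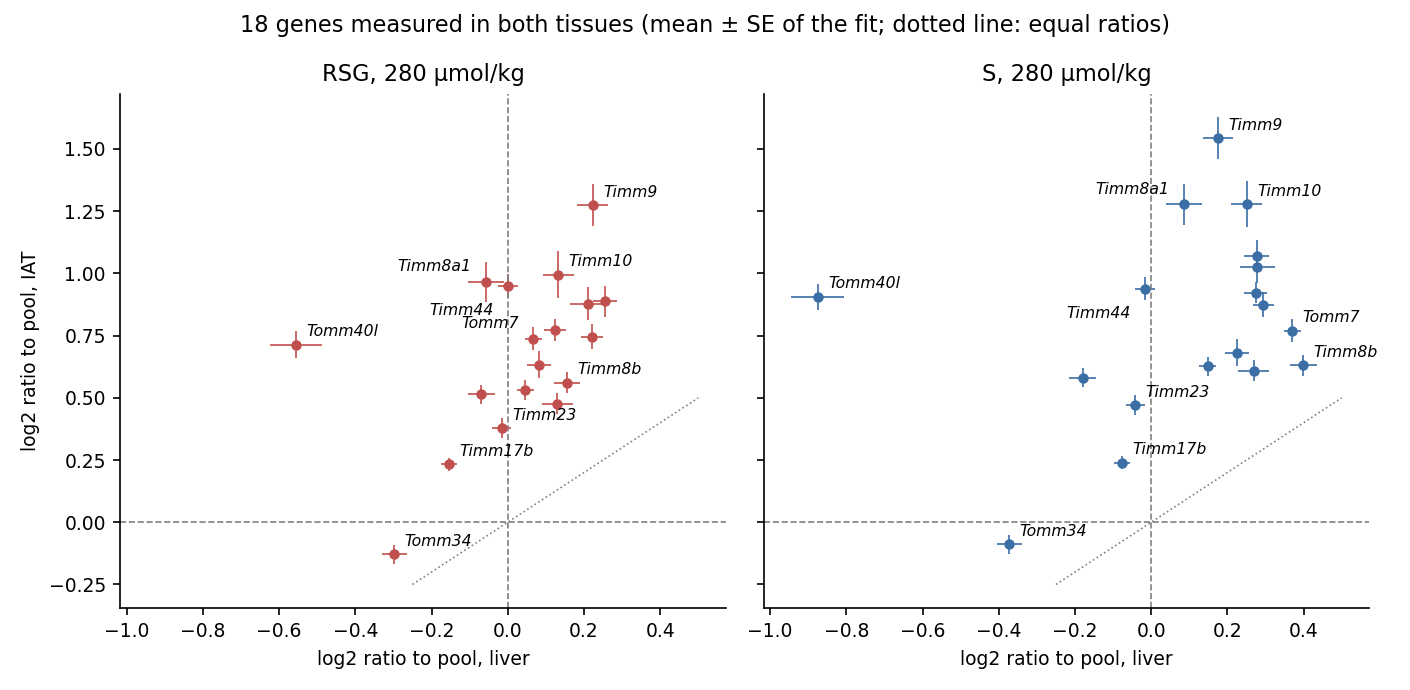
Mean log2 ratio over the pool in liver (x axis) and in IAT (y axis) for 18 member genes at 280 µmol/kg RSG or S; each point is 1 gene (mean of 6 mice), the bars are the SE of the fit and the dotted diagonal marks equal ratios. All points lie above the diagonal, Timm9 lies highest and Tomm40l lies farthest to the left, at -0.56 for RSG and -0.88 for S in liver.

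RSG and S were compared at the 3 matched molar doses in both tissues, which gave 6 pairs of groups. In IAT, limma called 0 members at 28 µmol/kg (1 at an unadjusted p under 0.05), where 0.00472% of all genes were called in either direction, and the 19 differences ran from -0.05 to 0.16 with 95% confidence intervals within -0.28 and 0.34. At 84 µmol/kg, Timm44 was higher with RSG than with S, by 0.34 (0.20 to 0.47; adjusted p = 0.0047), against 2.36% of all genes. The mice of the groups lay between 0.60 and 0.87 with RSG and between 0.19 and 0.59 with S and did not overlap. At this dose 11 of the 19 members had an unadjusted p under 0.05, with a median difference of 0.17. The RSG and S mice were scanned on different days here too, and with the scan day as a term in the fit 0 members were called. At 280 µmol/kg, 0 members were called (7 at an unadjusted p under 0.05), against 1.47% of all genes. The smallest p there belonged to Timm8a1, with mice between 0.26 and 1.23 for RSG and between 1.12 and 1.48 for S and a difference of -0.31 (-0.55 to -0.08; adjusted p = 0.136). Tomm40l differed by -0.19 (-0.35 to -0.04; adjusted p = 0.153) and Timm17a by -0.15 (-0.27 to -0.03; adjusted p = 0.166). The intervals of these 3 genes exclude 0, but the differences did not pass after adjustment over all probes, and the RSG and S mice overlapped for each gene. Without RSG replicate 2 the difference of Timm8a1 was -0.17 (adjusted p = 0.451). The IAT samples of S at 280 µmol/kg were scanned on days of their own, so at this dose the scan day and the compound cannot be told apart.

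In liver the compounds differed in more members, and mostly with S above RSG. Limma called 0 members at 28 µmol/kg (3 at an unadjusted p under 0.05), against 0.981% of all genes in either direction. At 84 µmol/kg Tomm7 and Timm17b were lower with RSG than with S, by -0.13 and -0.12 (adjusted p = 0.0309 and 0.0290), against 1.91% of all genes. At 280 µmol/kg 1 member was higher with RSG, Tomm40l, and 6 were lower (Tomm7, Timm8b, Timm17a, Tomm22, Timm50 and Timm17b), against 14.9% of all genes higher and 14.2% lower. The 4 probes of Timm17b ran from -0.12 to 0.26 in this comparison, with 2 lower and 1 higher, so that its direction depends on the probe. The 2 probes of Timm17a had -0.15 and -0.004, and only 1 was lower. Tomm20 and Tomm70a were not called by their brightest probes. Of the 2 Tomm20 probes, from -0.35 to -0.14, 1 was lower, and of the 4 Tomm70a probes, from -0.28 to 0.11, 3 were lower. Tomm7 had mice between 0.00 and 0.10 with RSG and between 0.34 and 0.41 with S. The groups did not overlap for Tomm7, and the difference was -0.30 (-0.37 to -0.24; adjusted p = 1.80e-08). Timm8b had ratios of -0.05, 0.21 and 0.24 (lowest, median and highest) with RSG and of 0.29, 0.40 and 0.49 with S, again without overlap, with a difference of -0.24 (-0.34 to -0.15; adjusted p = 2.63e-04). Timm17a had ratios of 0.08, 0.12 and 0.18 with RSG and of 0.12, 0.27 and 0.38 with S, which overlapped, and differed by -0.15 (-0.24 to -0.06; adjusted p = 0.0074). Tomm40l differed by 0.32 (0.12 to 0.52; adjusted p = 0.0133), and by 0.20 (adjusted p = 0.0479) without RSG replicate 2. With the scan day as a term in the fit, there were 2 calls at 280 µmol/kg and 0 at 84 µmol/kg.

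The other genes of the import pathway were read from a list of 27 measured genes that the naming rule does not take in. In IAT 26 of them were higher and 0 lower at 280 µmol/kg of each compound, with medians of 0.60 for RSG and 0.65 for S. Dnajc15, a co-chaperone of the import motor, had the highest ratio in the list, at 1.35 and 1.49. Hspa9, the matrix Hsp70 of the motor, had 0.67 and 0.84, Grpel1, its nucleotide exchange factor, 0.96 and 1.08, and Chchd4, the oxidoreductase that traps the small chaperones between the membranes, 0.93 and 1.16. Samm50, which inserts barrel proteins into the outer membrane, had 0.77 and 0.93. Fxc1, the older name of Timm10b, a small chaperone, had 0.45 and 0.61. In liver 18 of the 27 were higher and 2 lower with RSG at this dose (median 0.20), and 20 higher and 2 lower with S (median 0.26). The highest of them there was Grpel2, a second exchange factor, at 0.56 and 1.00.

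**Figure D5:**
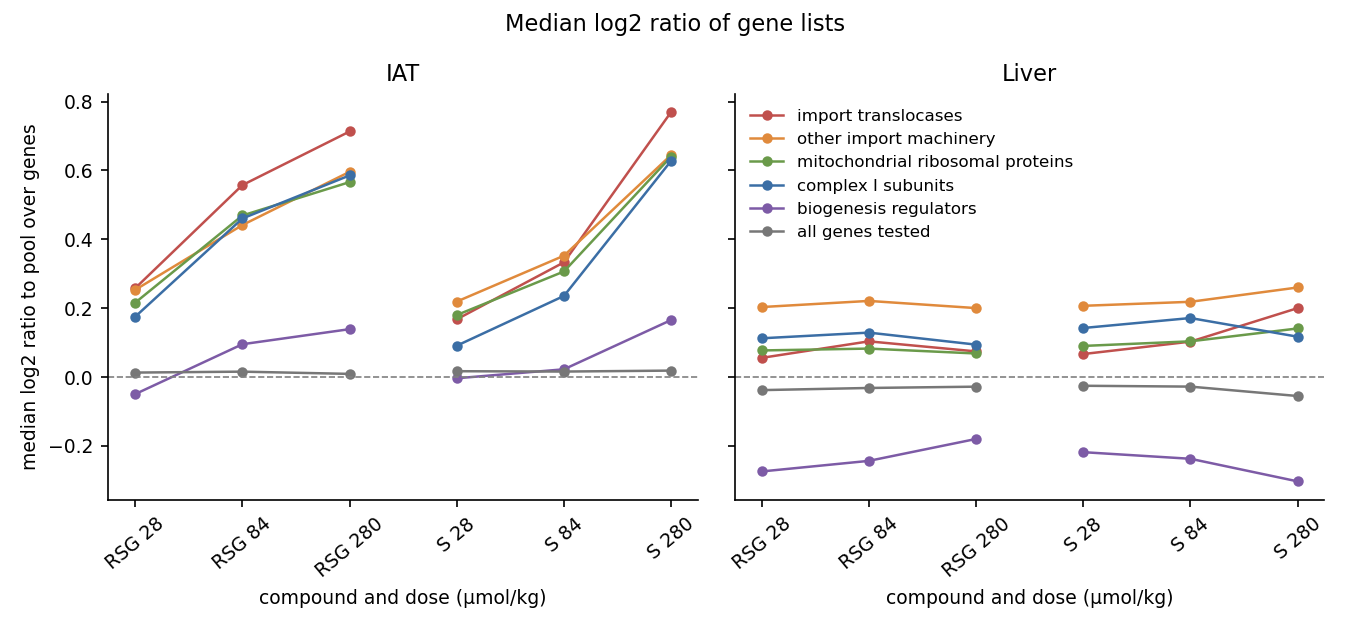
Median log2 ratio over the pool (y axis) of the member genes and of 4 other lists (other import machinery, mitochondrial ribosomal proteins, complex I subunits and regulators of mitochondrial biogenesis) and of all genes tested, in each group of 6 mice by compound and dose in µmol/kg (x axis), in IAT and liver. At 280 µmol/kg in IAT the member median of 0.71 for RSG and 0.77 for S lies beside the 0.57 to 0.65 of the first 3 other lists, and the regulators have 0.14 and 0.17.

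Genes of other mitochondrial systems were also higher in IAT. Of 75 mitochondrial ribosomal proteins, which make the proteins encoded in the mitochondrial genome, 73 were higher with RSG and 74 with S at 280 µmol/kg (medians 0.57 and 0.64), and all 36 complex I subunits were higher with both (medians 0.59 and 0.63). In liver the medians of these lists at 280 µmol/kg were 0.07 and 0.14 for the ribosomal proteins and 0.09 and 0.12 for complex I, with 36 and 49 of 75 and 18 and 25 of 36 higher. Whether the members differ from these lists was not tested.

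Of 12 regulators of mitochondrial biogenesis, 6 were higher and 2 lower in IAT with RSG at 280 µmol/kg (median 0.14), and 6 higher and 1 lower with S (median 0.17). Ppargc1b, a coactivator of mitochondrial genes, had ratios of 0.82 and 1.02, and Esrra, the receptor ERRα, 0.69 and 0.87. Polrmt, the polymerase that transcribes the mitochondrial genome, had 0.59 and 0.64. Ppargc1a, which is also on the brown adipocyte list, had 0.67 and 0.61. Tfam, which packages mitochondrial DNA, had 0.05 and 0.02 and was not called, and Nrf1 was lower, at -0.17 and -0.09. In liver 0 were higher and 8 lower with RSG (median -0.18), and 0 higher and 10 lower with S (median -0.30), among them Ppargc1a at -0.61 and -0.85 and Esrra at -0.28 and -0.64.

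The precision of the liver ratios was read from technical repeats, 6 array pairs each for RSG and S at 28 µmol/kg. Over the 18 members the median SD was 0.0571 between mice and 0.0263 between repeats for RSG, and 0.0516 and 0.0290 for S. The mice had the larger SD in 13 of 18 members for each compound. The means of the repeats lay away from those of the mice in some members. Tomm40l had -0.11 in the repeats of each compound, against -0.64 in the mice with RSG and -0.55 with S. Timm44 had 0.18 against 0.03 with RSG, and Timm8a1 0.21 against -0.04 with S. Tomm34 had -0.42 against -0.24 with RSG and -0.35 against -0.11 with S. Tomm70a had -0.24 against -0.09 with RSG and -0.29 against -0.08 with S. The labels do not tie the repeats to single mice, so whether they hold RNA of the same mice is not known.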

How the data were processed

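Two-colour Agilent arrays of 72 treated mouse tissues and 12 technical repeats of liver RNA (168 arrays) were used. The authors scanned the arrays and extracted them with Agilent Feature Extraction 9.5 (per the submitters' processing notes), and the deposited files hold, for each spot, a log10 ratio of red over green after background subtraction and dye normalisation, and intensity values of both channels. From these, log2 ratios of treated over pool were computed here, turned the same way on both arrays of a mouse and averaged, so that 1 mouse is 1 replicate. The authors' deposited table of log10 ratios, combined over dye swaps, served as an alternative only, since 4 of its 84 columns did not follow their own arrays. Control spots and flagged outlier spots were left out. Probes entered the test if 50% or more of the arrays of a group, or of the pool, had them well above background (26026 in liver, 31429 in IAT), with limma 3.58.1 in R 4.3.3 on all groups of a tissue, with Benjamini-Hochberg adjustment over every probe tested. The script was tested on simulated data. The brightest probe stood for a gene. The number of arrays limits the precision, and p-values measure the spread between mice against 1 pool. Members and lists were chosen with earlier results of these data known. Values by mouse are given for the 6 members with the smallest p in IAT at 280 µmol/kg RSG and those called the other way there, the 4 with the smallest p in each direction in liver at that dose, and the 3 with the smallest p between RSG and S at 280 µmol/kg in each tissue. Alternatives covered the scale, the filter, the probe rule, the thresholds, batches and leaving out mice. Slide as a random block and scan day as a term were added after seeing the data.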

Additional observations from a re-analysis of the deposited data

Results flagged for a closer look

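Each member in each group was tested for a mouse far from the others by Dixon's test at its 95% level. Of these 222 sets of 6 values, 24 stood out, where chance gives about 1 in 20. The members of a group share their mice, so these tests are not independent. In IAT RSG 280, replicate 2 was low in Timm10 (0.243), Timm13 (0.359), Timm22 (0.393), Timm44 (0.725), Timm8a1 (0.256), Timm9 (0.523), Tomm22 (0.321) and Tomm40 (0.411). The marker values of this mouse stand in the report, and their part in its low ratios was not tested. In Liver RSG 280, replicate 2 had Timm22 at 0.0164 and Tomm40l at 0.0612, where the other mice lay between 0.261 and 0.371 and between -0.760 and -0.516. The labels do not say whether the same number marks the same mouse in both tissues.

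Timm8a2, the dimmest member, was high in replicate 1 of IAT RSG 28 (0.552), IAT RSG 280 (0.491) and IAT S 84 (0.603). The other IAT values were Tomm70a in replicate 5 of RSG 28 (-0.111), Timm13 in replicate 4 (0.173), Timm50 in replicate 1 (0.363) and Tomm7 in replicate 1 (0.224) of S 28, and Timm17a in replicate 5 of S 84 (0.328). In liver they were Timm8a1 in replicate 5 of RSG 28 (-0.247), Tomm40l in replicate 2 of S 28 (-0.784), Timm22 in replicate 3 of S 84 (0.199), and, in S 280, Timm9 in replicate 6 (0.429), Tomm22 in replicate 5 (0.0566) and Tomm34 in replicate 6 (-0.465).

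The ratios of all 18 genes measured in both tissues differed between IAT and liver in limma, for RSG and for S at 280 µmol/kg. Called in opposite directions, higher in IAT and lower in liver, were Timm17b (differences of 0.386 for RSG and 0.315 for S), Tomm40l (1.27 and 1.78) and, for S, Tomm70a (0.761), whose liver direction depends on the probe.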

How the results depend on the processing

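Under the study's thresholds (p under 0.001 and a fold of at least 1.3), the members called against the pool fell to 1, 1 and 1 in liver for RSG at 28, 84 and 280 µmol/kg, to 1, 1 and 2 for S, and in IAT to 4 for RSG 28, 3 for S 28 and 8 for S 84, and 0 were called between the compounds in liver at 84 and 280 and in IAT at 84 µmol/kg, and 0 between doses of S in liver. The comparison of the compounds in IAT at 84 µmol/kg (1 call) gave 6 calls with the authors' table, 3 with normexp and loess, 4 with each sample centred, 5 with scan day as a random block, 4 with a replicate block and 0 with scan day as a term, and 1 to 3 leaving out a mouse. In IAT at 280 µmol/kg, scan day as a random block gave 2 calls. In liver at 84 µmol/kg (2 calls), the mean over probes gave 1, scan day or slide as a random block and scan day as a term gave 0, and leaving out a mouse gave 0 to 2. In liver at 280 µmol/kg scan day as a term left 2 calls, between doses it left 3 for S in liver and 11 for RSG in IAT. With the mean over the probes of a gene, the Tomm70a log2 ratio against the pool, Liver S 280, turned to 0.0716 (adjusted p = 0.0222 in limma), and the Tomm70a log2 ratio against the pool, Liver S 84, to 0.0372 (adjusted p = 0.26). Within single scan days, the member median was 0.220 (4 mice) and 0.175 (2 mice) for IAT S 28, and 0.0664 and 0.00109 (2 mice each) for Liver RSG 28. The counts under these other settings, here and in the report, have no share of all genes beside them. They cannot be read as particular to the members. The cause of these changes was not tested. Replicate numbers were not used as pairs in the main fits, since the labels do not tie them to animals and not every pair correlated above 0.1. They served as a block in an alternative only. Across tissues 21 of 36 pairs did (median 0.131). In 23 of 36 the liver sample correlated best with the IAT sample of its own number, among the 6 of its compound and dose. Pairs of equal number within a tissue come from different groups and so from different mice. They ran from -0.275 to 0.484 in liver (median 0.0941) and from -0.515 to 0.676 in IAT (median 0.125). Whether numbers mark mice was not tested.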
